A study of Mus musculus with 17 samples.

Results

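Anti-CD28 was added to anti-CD3 in mouse CD8+ T cells of both genotypes, and its effect shared by the genotypes was measured in 11 of the 17 libraries of the series. The cells came from C57BL/6 mice and were knockout (KO) or wild type (WT) for Cblb, with a stated purity of over 99% CD8+. The 5 libraries of cells given both antibodies (KO replicates 1, 2 and 3, WT replicates 2 and 3) were set against the 6 libraries of cells given anti-CD3 alone (3 KO and 3 WT), all after 12 h of stimulation. Replicate 1 of the WT cells given both antibodies is not among the 17 libraries. The 6 unstimulated libraries served for reference levels and entered 1 alternative fit. A library entered by its labelled genotype and stimulation, and no measured value was used to choose it. No label tells which exons of Cblb were deleted, whether mice or cells were pooled, or whether each replicate is an animal of its own. The p-values therefore speak only of the spread among these libraries, part or all of which may be technical.

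The T cell receptor signals through the CD3 chains that anti-CD3 engages, and CD28 is the main costimulatory receptor of T cells. In textbook accounts CD28 recruits phosphoinositide 3-kinase, Grb2 and, through PKC-theta, the NF-kappaB route, and it raises IL-2, the survival protein Bcl-xL and glucose use. Cbl-b, the E3 ubiquitin ligase that Cblb encodes, restrains this pathway, and T cells without it are known to depend less on CD28. The design therefore allows 2 questions, whether anti-CD28 had an effect common to both genotypes and whether its effect differed between them.

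Total counts were 16635826 to 38269033 in the 11 libraries, and no replicates of a group agreed within sampling noise (lowest chi-square per gene over pairs 3.79). Cblb itself, the targeted gene, had 82.0, 84.9 and 97.2 CPM in KO cells and 180.9 and 182.4 CPM in WT cells given both antibodies. With anti-CD3 alone it had 79.4, 80.6 and 83.1 CPM in KO cells and 198.1, 188.1 and 198.6 CPM in WT cells. CPM are counts scaled to a common library total. All 6 KO libraries lay below all 5 WT libraries. Counts over the whole gene cannot tell an intact transcript from a shortened one. The 7 markers used for CD8 T cells were Cd3d, Cd3e, Cd3g, Cd8a, Cd8b1, Trac and Trbc2. All but Cd8a and Cd8b1 are shared with CD4 T cells. Together the 7 summed to 2345 to 2466 CPM with both antibodies and 2253 to 2562 CPM with anti-CD3. The 6 B cell markers summed to 5.22 to 10.28 CPM with both antibodies and 7.27 to 9.84 CPM with anti-CD3, and the 3 CD4 T cell markers to 1.48 to 2.53 CPM with both antibodies and 1.48 to 2.73 CPM with anti-CD3. The 7 myeloid markers summed to 0.791 to 2.04 CPM with both antibodies and 0.687 to 1.72 CPM with anti-CD3. The 4 NK cell markers summed to 4.06 to 6.71 CPM with both antibodies and 3.49 to 7.27 CPM with anti-CD3, and the 5 dendritic cell markers to 3.12 to 5.398 CPM with both antibodies and 3.65 to 6.01 CPM with anti-CD3. The 3 gamma-delta T cell markers summed to 2.90 to 4.08 CPM with both antibodies and 2.23 to 4.52 CPM with anti-CD3, and the 5 erythroid and platelet markers to 0.527 to 2.10 CPM with both antibodies and 0.238 to 2.75 CPM with anti-CD3. Of all these markers only Cd14 (myeloid), Ncr1 (NK), Cd209a (dendritic), Pf4 and Ppbp (platelet) were at 0 in all 11 libraries.

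Il2 is the textbook target gene of CD28 costimulation, so the sequence before its start is shown. The stretch is the 250 bases before the start of Il2 in RefSeq, GRCm38.p6 chr3:37125955-37126204, minus strand, printed 5′ to 3′ on the strand of the gene.
Il2: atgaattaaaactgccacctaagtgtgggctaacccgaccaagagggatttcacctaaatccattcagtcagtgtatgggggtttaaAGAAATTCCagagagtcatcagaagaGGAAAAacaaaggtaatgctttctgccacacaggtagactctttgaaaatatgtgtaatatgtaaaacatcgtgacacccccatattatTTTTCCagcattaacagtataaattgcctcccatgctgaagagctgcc
Capitals mark the matches to the 2 motifs found when both strands were searched. AGAAATTCC, the core of the CD28 response element described in the Il2 promoter, lies from base -163 to base -155, counted from the start, and occurs in 75 of 27025 promoters of this length (0.278%). GGAAAA, the core that NFAT proteins are known to bind, lies from -137 to -132 and, on the other strand, from -48 to -43, and occurs in 20.6% of them. TGANTCA, an AP-1 motif, had no match in the window and occurs in 6.87%. The matches do not overlap, and a match of letters is not evidence of binding.

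No gene was called for anti-CD28 added in both genotypes. Of 15747 genes tested, 0 (0%) passed an adjusted p of 0.05 in edgeR's quasi-likelihood test with genotype as covariate, and the smallest adjusted p was 1. At an unadjusted p under 0.05 there were 178 genes higher (1.13%) and 239 lower (1.52%) with both antibodies, 2.65% in all. That share is lower than a threshold of 0.05 would give by itself if no gene differed. The fit has no interaction term, so a difference between the genotypes in the effect counts as spread and can make its p-values too large. The cause of the low share was not tested. DESeq2 called 1 gene, the predicted gene Gm26825, which was lower by 0.89 ± 0.17 on the log2 scale (SE, adjusted p = 0.00147). Limma voom called 0, but its smallest adjusted p was 0.0535, close to the threshold. In limma voom 4828 of the 15747 genes had an unadjusted p under 0.05. Values above 0 are higher with both antibodies, and the median log2 fold change over all genes was -0.008. Without KO both-antibody replicate 3 the count was still 0, with 2022 genes at an unadjusted p under 0.05.

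The intervals show what size of shared effect these libraries leave possible. The 95% interval reached 0.32 on the log2 scale to either side of the estimate at the median gene. The whole interval lay within a 2-fold difference for 13921 genes (88.4%) and within 1.5-fold for 10670 (67.8%). Among the 9304 protein-coding genes with a mean log2 CPM of 2 or more these shares were 98.8% and 92.1%. Larger effects remained possible mainly for low genes. An effect of opposite sign in the 2 genotypes would cancel in this fit and add to its spread, so each genotype is given beside it below.

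None of the genes on a list for CD28 costimulation and T cell activation passed the test. The list was drawn up whatever the values of its genes in this fit, but with earlier results of these data known. The list of 31 genes covers cytokines, chemokines, survival, receptors, NF-kappaB, transcription factors and metabolism, and all 31 were tested. There were 7 values above 0 and 24 below 0, against 47.1% and 52.9% of all genes tested. Among protein-coding genes with a mean log2 CPM of 2 or more, 59.7% lay below 0. The values of the 31 genes ran from -0.51 for Gzmb to 0.07 for Nr4a1. At an unadjusted p under 0.05 stood 2 genes, both lower, Tnfrsf9 and Hk2. The interval lay within 2-fold for 30 of the 31 genes, all but Gzmb, and within 1.5-fold for 25.

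**Figure D1:**
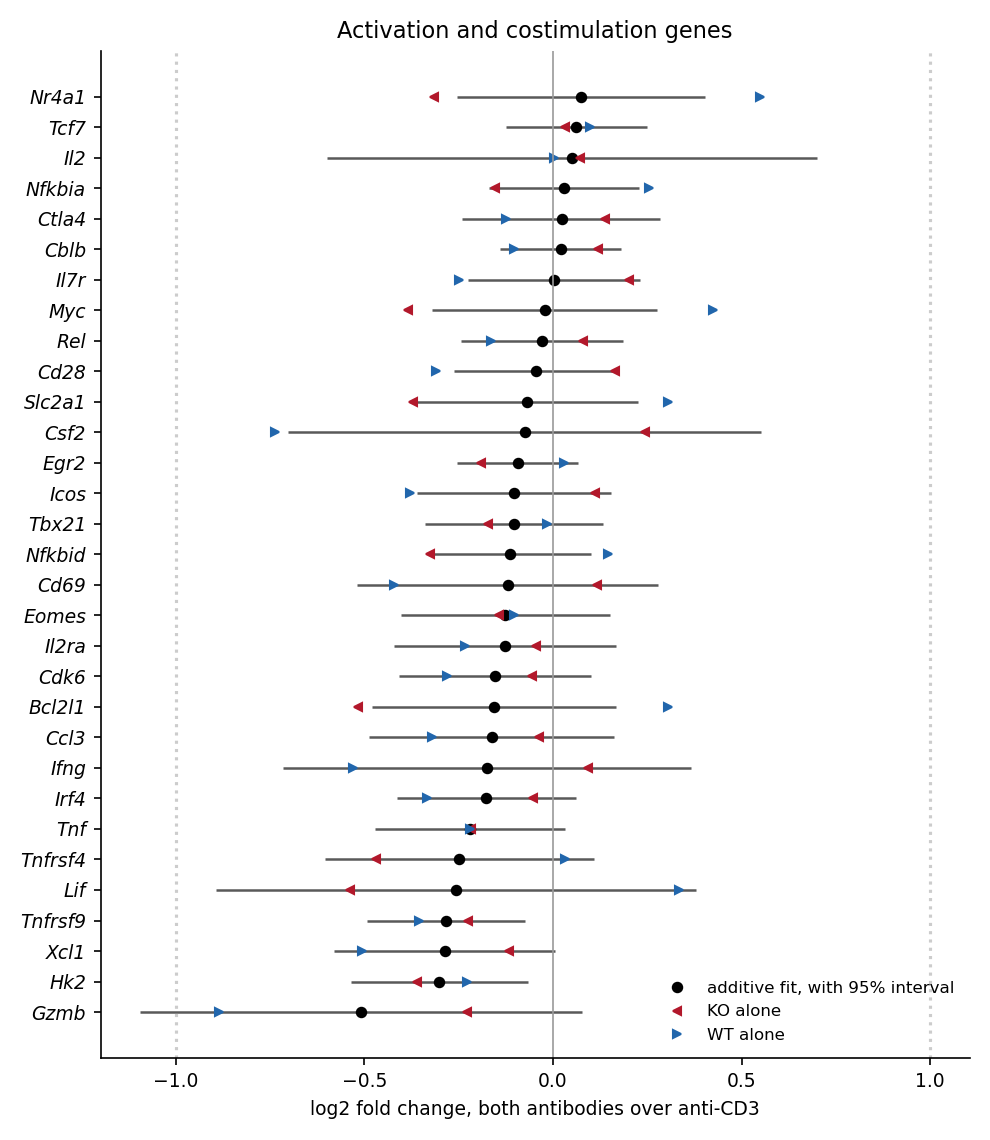
Log2 fold change of both antibodies over anti-CD3 for the 31 activation and costimulation genes, one row per gene, sorted by the additive fit. Black points are the additive fit with 95% intervals, red left-pointing triangles KO alone and blue right-pointing triangles WT alone, and dotted lines mark 2-fold. The intervals of 30 genes stay inside the dotted lines, and the triangles of 18 genes lie on opposite sides of 0.

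Il2 (ENSMUSG00000027720, GRCm38 chromosome 3, 37120523 to 37125959, minus strand) encodes the T cell growth factor IL-2. It had 6.53, 16.8 and 25.4 CPM in KO cells and 3.16 and 2.499 CPM in WT cells given both antibodies, against 11.5, 16.5 and 18.2 CPM in KO cells and 1.84, 3.66 and 2.71 CPM in WT cells given anti-CD3. The both-antibody libraries overlapped the anti-CD3 libraries in each genotype, and KO both-antibody replicates 1 and 3 were the lowest and highest KO libraries. The log2 fold change was 0.05 ± 0.30 (SE, 95% interval -0.60 to 0.70, unadjusted p = 0.868), or -0.03 after the GC correction described below. Unstimulated libraries held at most 0.380 CPM.

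Ifng, which encodes interferon-gamma, had 239, 515 and 683 CPM in KO cells and 70.6 and 59.8 CPM in WT cells given both antibodies. With anti-CD3 alone it had 333, 446 and 567 CPM in KO cells and 101.5, 89.1 and 91.7 CPM in WT cells. The KO libraries overlapped, whereas both WT both-antibody libraries lay below the 3 WT anti-CD3 libraries. The log2 fold change was -0.17 ± 0.25 in both genotypes together (unadjusted p = 0.491), 0.09 ± 0.32 in KO and -0.53 ± 0.36 in WT, and -0.07 in KO and -0.30 in WT after the correction. The difference between the genotypes had an unadjusted p of 0.225. Values in WT that do not overlap were common, since 55.2% of all genes tested had them in WT, and 13.5% in KO. Of the 31 genes, 22 did not overlap in WT and 8 in KO.

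The other cytokine, chemokine and killing genes named here had shared values below 0, none of them called. Tnf, encoding tumour necrosis factor, had 81.9, 109.6 and 111.5 CPM in KO cells and 45.5 and 45.7 CPM in WT cells given both antibodies, and 104.5, 108.6 and 139 CPM in KO cells and 51.4, 63.2 and 44.7 CPM in WT cells given anti-CD3. It was at -0.22 ± 0.12 on the log2 scale, nearly the same in KO (-0.22) and WT (-0.22), and the libraries overlapped in each genotype. Gzmb, encoding the killer cell protease granzyme B, had 113, 202 and 315 CPM in KO cells and 32.8 and 23.9 CPM in WT cells given both antibodies, against 185, 210.4 and 343 CPM in KO cells and 52.5, 45.7 and 59.1 CPM in WT cells given anti-CD3. Both WT both-antibody libraries were the lowest of all 11. Its log2 fold change was -0.51 ± 0.27 (95% interval -1.09 to 0.08). Xcl1, a chemokine for cross-presenting dendritic cells, had 942, 1583 and 1552 CPM in KO cells and 613 and 535 CPM in WT cells given both antibodies. With anti-CD3 it had 1387, 1442 and 1589 CPM in KO cells and 840, 830 and 774 CPM in WT cells, which gave -0.29 ± 0.14 on the log2 scale (unadjusted p = 0.0535). Csf2, encoding GM-CSF, and Lif had -0.08 ± 0.29 and -0.26 ± 0.29, and Csf2 lay at 0.450 to 7.36 CPM with both antibodies.

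**Figure D2:**
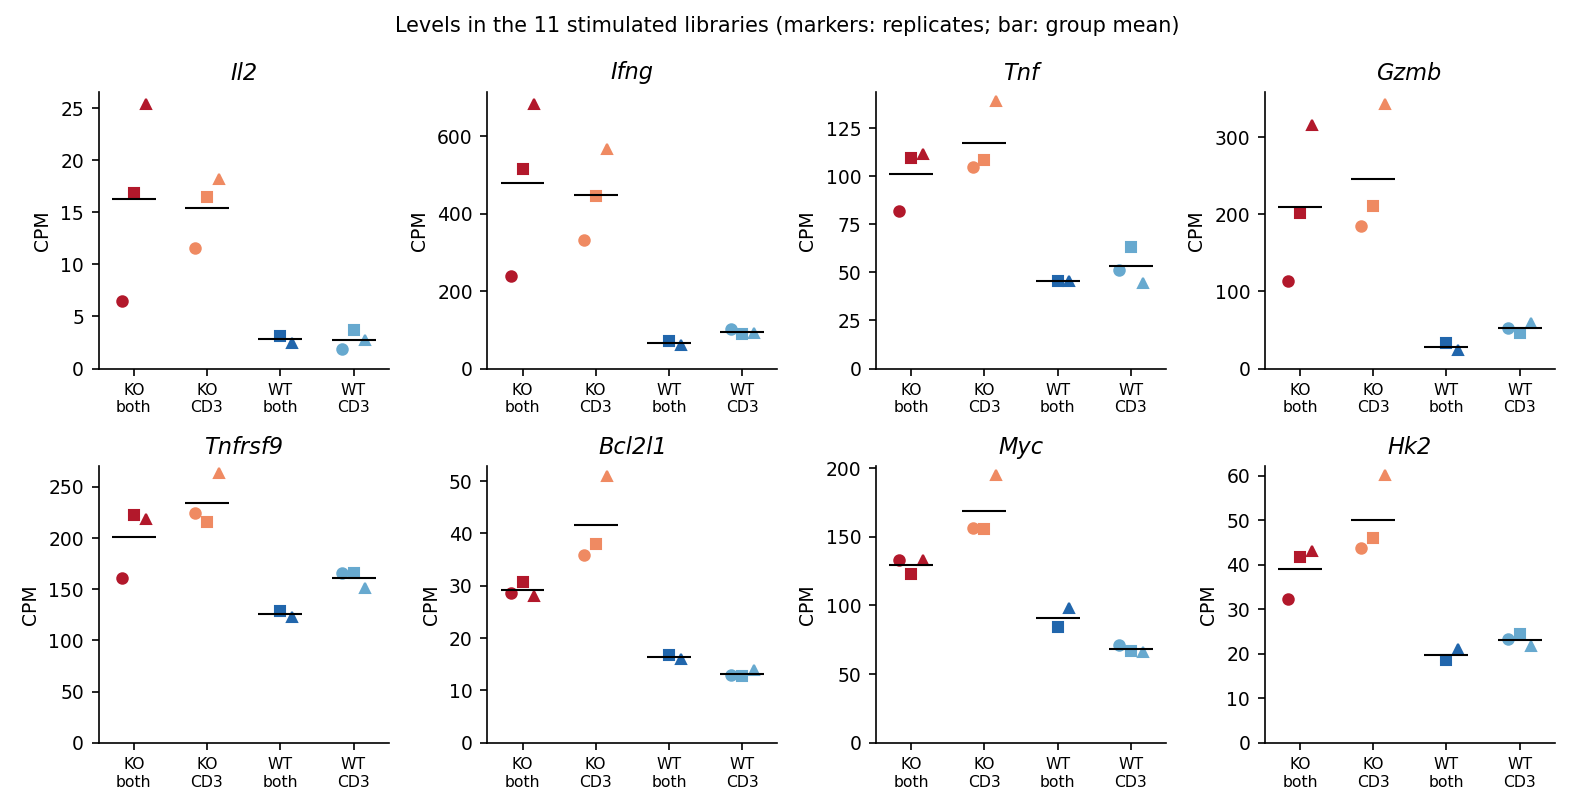
Levels in CPM of 8 activation genes in the 11 stimulated libraries, with a panel per gene and a column per group, both antibodies left of anti-CD3 in each genotype. Circles, squares and triangles are replicates 1, 2 and 3, and bars are group means. Myc and Bcl2l1 lie lower with both antibodies in KO cells and higher in WT cells, without overlap, and Il2 overlaps in each genotype.

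The receptors and survival genes divided into those with one direction in both genotypes and those with opposite directions. Tnfrsf9, encoding the costimulatory receptor 4-1BB, had 161, 223 and 219 CPM in KO cells and 129 and 122 CPM in WT cells given both antibodies, against 225, 216 and 263 CPM in KO cells and 165, 166 and 151 CPM in WT cells given anti-CD3. It was lower by 0.28 ± 0.10 on the log2 scale (unadjusted p = 0.0121, adjusted p = 1), with -0.23 in KO, where the libraries overlapped, and -0.36 in WT, where they did not. Cd28 itself had 194, 208 and 243 CPM in KO cells and 200 and 211 CPM in WT cells given both antibodies, against 200.5, 182 and 193 CPM in KO cells and 244, 269 and 252 CPM in WT cells given anti-CD3. Its log2 fold change was -0.04 ± 0.10 in the shared fit, 0.16 in KO and -0.31 in WT, and -0.001 in KO and -0.04 in WT after the correction. Bcl2l1, encoding Bcl-xL, had 28.6, 30.8 and 28.1 CPM in KO cells and 16.8 and 15.9 CPM in WT cells given both antibodies, against 35.8, 38.1 and 50.9 CPM in KO cells and 12.99, 12.8 and 13.8 CPM in WT cells given anti-CD3. It was at -0.16 ± 0.15 in the shared fit, -0.52 ± 0.13 in KO and 0.31 ± 0.15 in WT, without overlap in either genotype. After the correction it was at -0.15 in the shared fit, -0.24 in KO and -0.04 in WT.

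Some transcription factor genes were opposed between the genotypes. Myc, a regulator of T cell growth, had 133, 123 and 133 CPM in KO cells and 84.1 and 98.2 CPM in WT cells given both antibodies, against 157, 156 and 195 CPM in KO cells and 71.4, 66.6 and 66.1 CPM in WT cells given anti-CD3. Its shared log2 fold change was -0.02 ± 0.14, with -0.38 ± 0.10 in KO and 0.42 ± 0.11 in WT, and the difference between genotypes was -0.81 ± 0.15 (adjusted p = 0.065, not called). After the correction the shared value was 0.001. Nr4a1, an early gene of T cell receptor signalling, was at -0.32 ± 0.12 in KO and 0.55 ± 0.14 in WT, and at -0.01 in KO and 0.11 in WT after the correction. Hk2, a hexokinase that activated T cells induce, had 32.2, 41.8 and 43.1 CPM in KO cells and 18.6 and 21.0 CPM in WT cells given both antibodies. With anti-CD3 it had 43.8, 46.0 and 60.1 CPM in KO cells and 23.3, 24.5 and 21.8 CPM in WT cells, which gave -0.30 ± 0.11 on the log2 scale (unadjusted p = 0.0158) without overlap in either genotype. The NF-kappaB inhibitor gene Nfkbia was at 0.03 ± 0.09, the NF-kappaB subunit gene Rel at -0.03 ± 0.10, the glucose transporter gene Slc2a1 at -0.07 ± 0.14 and Irf4, a transcription factor graded with receptor signal strength, at -0.18 ± 0.11.

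Of the 31 genes, 18 (58.1%) had opposite signs in KO and WT, and over all genes tested this share was 71.1%. The sign of the effect followed the GC content of the genes. Among protein-coding genes with a mean log2 CPM of 0 or more and at most 40% GC in their transcript, the median log2 fold change was 0.22 in KO and -0.33 in WT (703 genes). In the class over 56% GC it was -0.30 in KO and 0.52 in WT (1720 genes). The 4 classes between them lay in order in each genotype, and in the shared fit all 6 class medians lay between -0.04 and 0.09.

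The same trend was measured in each library as a GC tilt. For each gene the log2 deviation from the mean of the 11 libraries was taken. The tilt is its median over the 1722 such genes with 56% GC or more less its median over the 703 with 40% GC or less. KO both-antibody replicates 1, 2 and 3 had tilts of 0.39, -0.30 and -1.10, and WT both-antibody replicates 2 and 3 had 0.60 and 0.57. KO anti-CD3 replicates had 0.26, 0.16 and 0.28, and WT anti-CD3 replicates had -0.09, -0.37 and -0.38. The KO both-antibody libraries overlapped their anti-CD3 libraries and spread over a wider range than any other group, with replicate 3 lowest of the 11, whereas the WT both-antibody libraries both lay above every other library.

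The mean tilt with both antibodies minus that with anti-CD3 was -0.56 in KO and 0.86 in WT, so the 2 genotypes ran in opposite directions. In both genotypes together the difference was 0.15 (exact permutation test within genotype, two-sided, p = 0.66 over 200 arrangements), which is 0.34 without KO both-antibody replicate 3 and -0.035 without KO both-antibody replicate 1. Within each genotype alone, the same exact permutation test gave p = 0.40 over 20 arrangements in KO and p = 0.10 over 10 in WT, and 0.10 is the smallest p that either genotype's number of libraries allows. Without KO both-antibody replicate 3 the KO difference was -0.18. The share of counts taken by 7SL and 7SK, abundant noncoding RNAs that serve protein secretion and transcription control, moved with the tilt. It was 9.45%, 5.88% and 2.65% in KO cells and 11.4% and 9.94% in WT cells given both antibodies, against 8.12%, 7.33% and 8.07% in KO cells and 6.49%, 5.26% and 4.62% in WT cells given anti-CD3. Its part in the gene results was not tested.

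**Figure D3:**
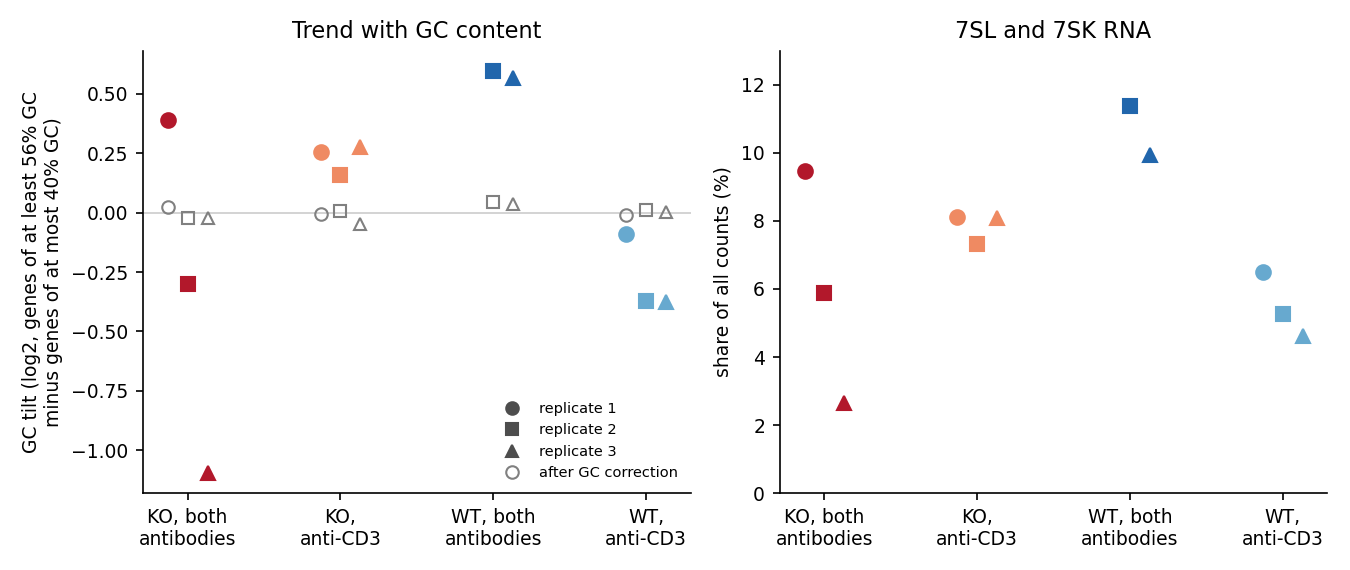
GC tilt (left, log2) and share of counts taken by 7SL and 7SK RNA (right, percent) in each of the 11 libraries, both antibodies left of anti-CD3 in each genotype. Filled markers are the libraries as deposited, with circles, squares and triangles for replicates 1, 2 and 3, and open markers are after the GC correction. KO both-antibody replicate 3 is lowest in each panel and the 2 WT both-antibody libraries are the highest.

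A correction took a smooth curve of expression on GC content out of each library before the fit. After it the tilts of all 11 libraries lay between -0.048 and 0.047. No gene was called for anti-CD28 in both genotypes after the correction either (smallest adjusted p 0.74), with 372 genes higher (2.36%) and 361 lower (2.29%) at an unadjusted p under 0.05, 4.65% in all. DESeq2 with the correction called 1, Gm26825 again. Limma voom with it called 0, with a smallest adjusted p of 0.0546 and 3281 genes at an unadjusted p under 0.05. The 95% interval then reached 0.23 to either side at the median gene. With the correction and without KO both-antibody replicate 3 the count was 0, with 2019 genes at an unadjusted p under 0.05.

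The effects in KO and WT, which share no library, were opposed across genes as deposited. Over the 10369 genes with a mean log2 CPM of 2 or more the log2 fold changes had Pearson's r of -0.60 and Spearman's rho of -0.69, and 22% had the same sign. After the correction r was -0.25 with 41.9% of the same sign, without KO both-antibody replicate 3 it was -0.17 with 42.3%, and with both it was 0.03 with 53.4%. These are descriptions across genes of the same 11 libraries, which share each library's GC trend and depth, and genes are not independent replicates.

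**Figure D4:**
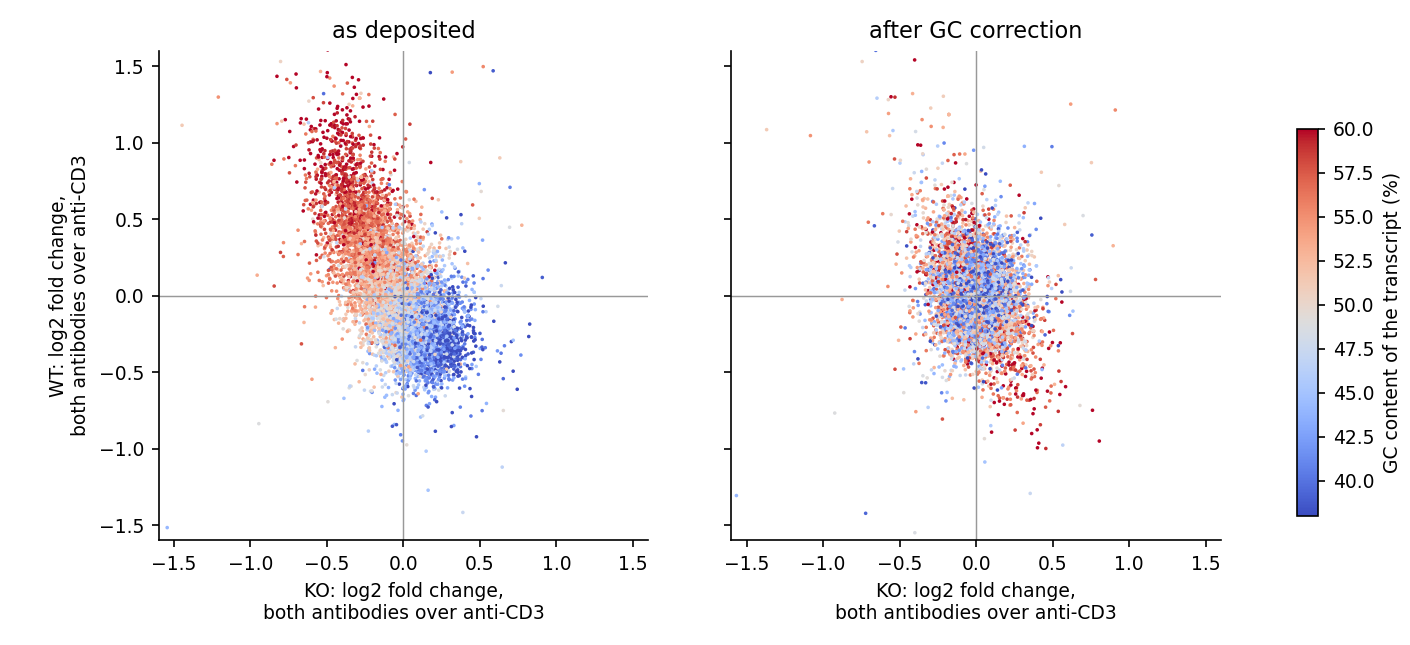
Log2 fold change of both antibodies over anti-CD3 in KO (x axis) and in WT (y axis), one point for each of the 10369 genes with a mean log2 CPM of 2 or more, as deposited (left) and after the GC correction (right). Colour is the GC content of the transcript in percent, and the axes end at 1.6, which leaves out 36 genes on the left and 26 on the right. On the left the colours run along a falling diagonal from GC-poor genes at lower right to GC-rich genes at upper left, and on the right the cloud is narrower in each direction.

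Whether the effect of anti-CD28 differed between genotypes was tested as an interaction, the KO effect minus the WT effect. No gene was called (0%, smallest adjusted p 0.065), while 2532 genes were higher (16.1%) and 2389 lower (15.2%) at an unadjusted p under 0.05, and the tools differed. DESeq2 called 2536 genes and limma voom 7780, and edgeR called 545 with no filter on low genes, 5536 without KO both-antibody replicate 1 and 1736 without KO both-antibody replicate 3. With the GC correction edgeR called 0 (2098 at an unadjusted p under 0.05), DESeq2 332 and limma voom 3706.

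Within KO cells alone, no gene was called for anti-CD28 (0%, 1670 genes or 10.6% at an unadjusted p under 0.05, 5.05% higher and 5.55% lower), against 5 by DESeq2, 5492 by limma voom and 2900 by edgeR without KO both-antibody replicate 1. In WT cells none was called in the fit of all 4 groups (0%, 3882 genes or 24.7% at an unadjusted p under 0.05, 11.4% higher and 13.2% lower). A fit of the 5 WT libraries alone called 4780, DESeq2 515, limma voom 6362 and edgeR with no filter 27. Without KO both-antibody replicate 1 or 3, with every WT library kept, the WT counts were 2603 of 15721 genes tested and 3470 of 15741 in that order. With the GC correction edgeR called 0 in each genotype, DESeq2 6 in KO and 159 in WT, and limma voom 3020 in KO and 2028 in WT.

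The genes of smallest p for the interaction were chosen by that p, so their values in the 2 genotypes are given as a description. Rps6ka3, encoding the kinase RSK2, had 168, 208 and 205 CPM in KO cells and 141 and 123 CPM in WT cells given both antibodies, against 147, 158 and 123.5 CPM in KO cells and 221, 257 and 205 CPM in WT cells given anti-CD3. It was at 0.44 in KO and -0.79 in WT, and the difference of 1.23 ± 0.19 was 0.78 after the correction. Zfp729a, Fam76b, Trim30d and Phip also lay above 0 in KO and below 0 in WT. Nob1, a factor of small ribosomal subunit maturation, had 27.5, 23.9 and 23.1 CPM in KO cells and 26.6 and 28.8 CPM in WT cells given both antibodies, against 34.0, 31.4 and 37.9 CPM in KO cells and 17.9, 14.6 and 18.8 CPM in WT cells given anti-CD3. Its difference was -1.17 ± 0.18, and -0.90 after the correction. Jun, an AP-1 subunit gene, was at -0.12 in KO and 0.88 in WT, and Tomm40, Myc and Rilpl2 likewise lay below 0 in KO and above 0 in WT. All 10 had an adjusted p of at least 0.065, and each was called under at least 1 of the alternatives. Limma voom alone called 7780 of the 15747 genes tested, and genes chosen by smallest p are the likeliest to be called. Being called there is therefore no added evidence for these 10.

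Junb, an AP-1 subunit gene whose transcript holds 62.6% GC, was chosen after its values were seen. It had 44.4, 13.8 and 5.52 CPM in KO cells and 50.5 and 53.3 CPM in WT cells given both antibodies, against 25.1, 26.5 and 48.4 CPM in KO cells and 10.9, 9.51 and 8.34 CPM in WT cells given anti-CD3. The KO both-antibody and the WT anti-CD3 replicates lay in the order of their tilts, and the KO anti-CD3 and WT both-antibody replicates did not. The part of the tilt in these values was not tested. Its log2 fold change was -0.66 ± 0.61 in KO and 2.44 ± 0.68 in WT as deposited, and -0.40 in KO and 1.54 in WT after the correction, so that the value in WT stayed above 0.

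Most genes of the ribosome biogenesis, DNA replication and metabolic lists had values slightly below 0 with both antibodies in the additive fit. None of the members of these lists was called, so the following are counts and medians of small values. Over the 9304 protein-coding genes with a mean log2 CPM of 2 or more, 59.7% lay below 0 with a median of -0.019, or -0.003 after the correction.

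All 25 ribosome biogenesis genes had values below 0 (median -0.16, range -0.30 to -0.07), 6 of them at an unadjusted p under 0.05. In each genotype 12 of them lay below 0. Of all genes tested, 1.52% were lower at an unadjusted p under 0.05 and 16.4% lay below 0 in each genotype. The median was -0.22 in KO and -0.19 in WT, and -0.14 in KO and -0.20 in WT after the correction. Nop16, a nucleolar protein gene, had 35.4, 43.6 and 45.6 CPM in KO cells and 25.0 and 27.4 CPM in WT cells given both antibodies, against 47.6, 48.1 and 63.2 CPM in KO cells and 32.6, 31.7 and 27.9 CPM in WT cells given anti-CD3. Its log2 fold change was -0.30 ± 0.10 (unadjusted p = 0.0125). By library, the median deviation of the 25 genes from the anti-CD3 mean of their genotype was -0.38, -0.15 and -0.19 in KO and -0.23 and -0.15 in WT with both antibodies. With anti-CD3 it was -0.09, -0.09 and 0.19 in KO and 0.03, 0.02 and -0.06 in WT. The libraries did not overlap in either genotype, with KO both-antibody replicate 1 the lowest and KO anti-CD3 replicate 3 the highest. After the correction KO both-antibody replicate 3 lay at 0.04, above KO anti-CD3 replicates 1 and 2.

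DNA replication genes lay below 0 for 29 of 31 members (median -0.18), 7 of them at an unadjusted p under 0.05. In each genotype 20 members lay below 0. Of all genes tested, 52.9% lay below 0, 1.52% were lower at an unadjusted p under 0.05, and 16.4% lay below 0 in each genotype. Cdc6, which loads the replicative helicase, had 4.49, 4.88 and 6.83 CPM in KO cells and 1.90 and 1.75 CPM in WT cells given both antibodies, against 6.83, 6.24 and 9.53 CPM in KO cells and 3.32, 2.61 and 3.00 CPM in WT cells given anti-CD3. The log2 fold change of Cdc6 was -0.57 ± 0.16 (unadjusted p = 0.00384). The helicase subunit genes Mcm3 and Mcm5 and the polymerase gene Pole were at -0.28 ± 0.09, -0.25 ± 0.10 and -0.28 ± 0.09. The median by library was -0.35, -0.24 and 0.003 in KO and -0.23 and -0.27 in WT with both antibodies, and -0.08, -0.13 and 0.18 in KO and 0.05, -0.06 and 0.02 in WT with anti-CD3. KO both-antibody replicate 3 lay among the anti-CD3 libraries. Mitosis genes had 16 of 24 below 0 (median -0.06, up to 0.33), with 1 at an unadjusted p under 0.05. Their medians were -0.02 in KO and -0.12 in WT, or -0.12 in KO and 0.08 in WT after the correction, and the shared median ran from -0.26 to 0.03 over the alternatives.

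Glycolysis and pentose phosphate genes lay below 0 for 22 of 23 members (median -0.12), but the genotypes were opposed as deposited, with -0.32 in KO and 0.15 in WT. After the correction the medians were -0.12 in KO and -0.15 in WT. By library, the corrected median deviation from the anti-CD3 mean of the genotype was -0.175, -0.122 and -0.036 in KO with both antibodies. With anti-CD3 it was -0.055, -0.071 and 0.121 in KO, so the KO libraries overlapped. In WT it was -0.15 and -0.123 with both antibodies, against 0.042, 0.004 and -0.035 with anti-CD3, without overlap. Hk2, the triosephosphate isomerase gene Tpi1 (-0.32 ± 0.11) and G6pdx (-0.20), the entry enzyme of the pentose phosphate pathway, were the 3 members at an unadjusted p under 0.05. Of all genes tested, 1.52% were lower at that p. Sterol and fatty acid synthesis genes had 25 of 30 below 0 (median -0.14, -0.09 in KO and -0.18 in WT). Their member of smallest p was Fdps, of the sterol pathway, which had 31.3, 36.0 and 33.9 CPM in KO cells and 25.6 and 24.2 CPM in WT cells given both antibodies. With anti-CD3 it had 37.9, 38.4 and 44.3 CPM in KO cells and 31.9, 28.7 and 31.0 CPM in WT cells, which gave -0.27 ± 0.08 on the log2 scale without overlap in either genotype. Amino acid, one-carbon and ATF4 genes had 21 of 26 below 0 (median -0.10), with Mthfd1 at -0.26 ± 0.09. The genotypes were again opposed as deposited, with -0.22 in KO and 0.04 in WT, and had -0.09 in KO and -0.18 in WT after the correction. By library, the corrected median deviation was -0.273, -0.075 and 0.104 in KO with both antibodies, against -0.06, -0.079 and 0.17 with anti-CD3. In WT it was -0.187 and -0.112 with both antibodies, against 0.02, -0.021 and -0.005 with anti-CD3. The KO libraries thus overlapped and the WT libraries did not. Nuclear-encoded respiratory chain subunits had 24 of 28 below 0 (median -0.06, -0.03 in KO and -0.13 in WT).

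**Figure D5:**
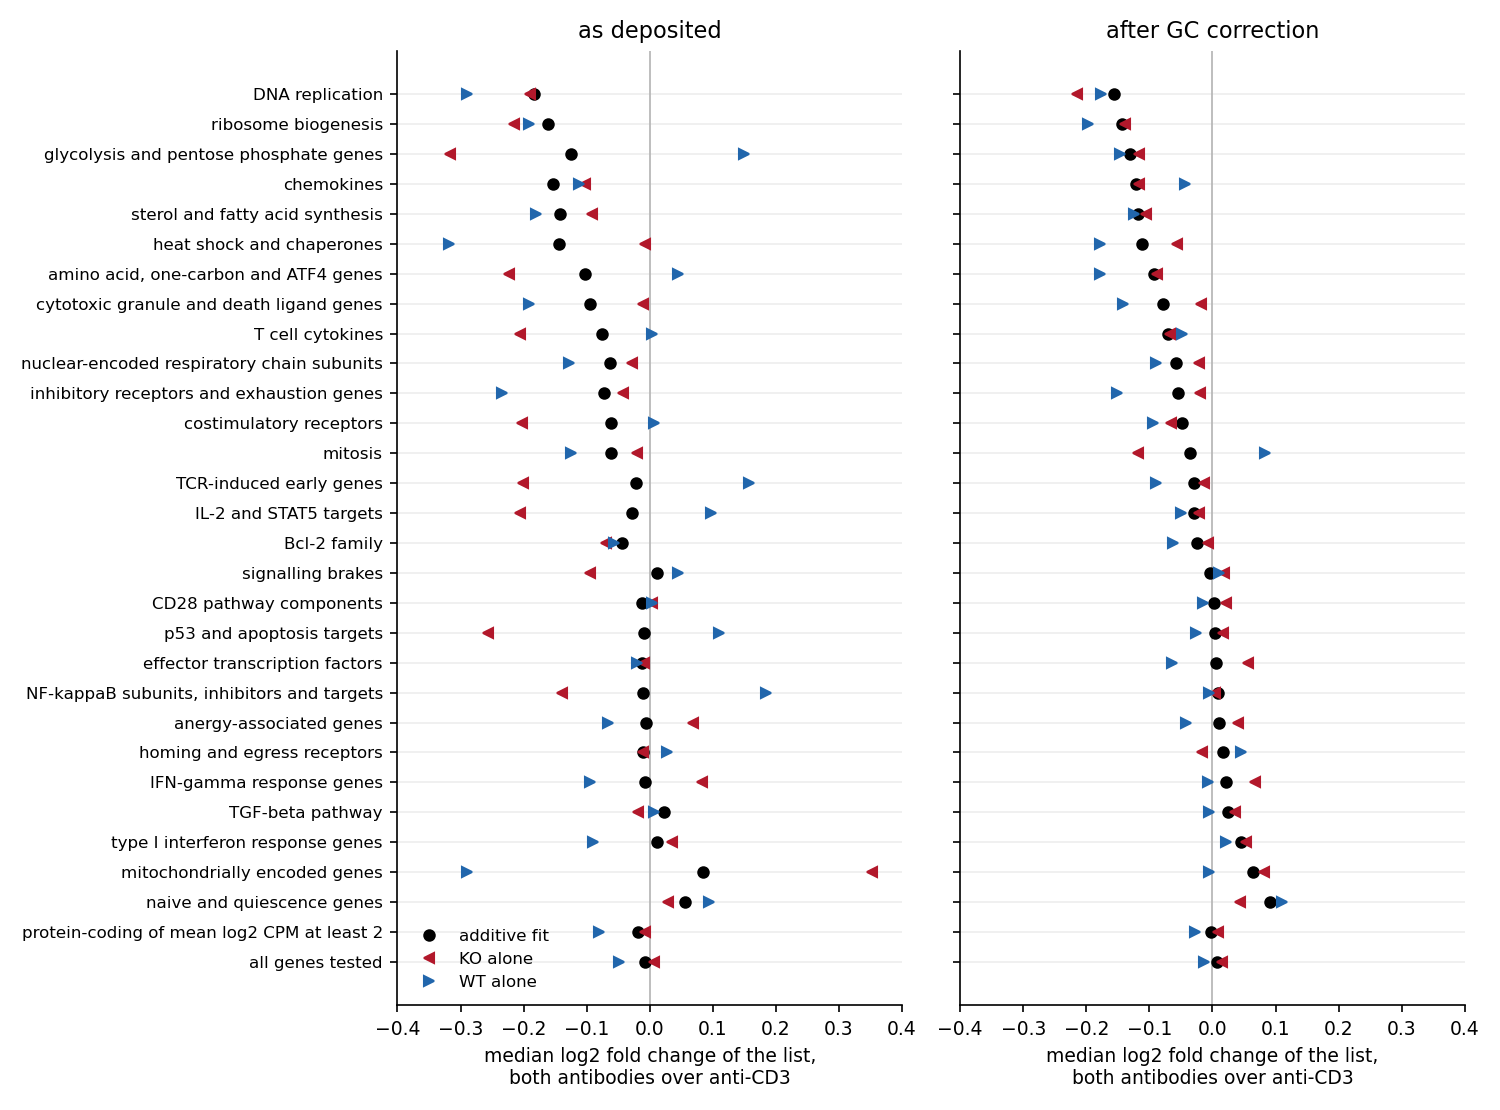
Median log2 fold change of both antibodies over anti-CD3 for the gene lists, as deposited (left) and after the GC correction (right), with lists in order of the corrected shared value. Black points are the additive fit, red left-pointing triangles KO alone and blue right-pointing triangles WT alone. Most triangles that lie on opposite sides of 0 on the left move together on the right. DNA replication, ribosome biogenesis and glycolysis have the lowest shared values on the right. On the left, chemokines, heat shock and chaperones, and sterol and fatty acid synthesis have lower shared values than glycolysis.

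Genes of naive and resting T cells lay the other way in the additive fit, with 22 of 28 above 0, against 47.1% of all genes tested. The median was 0.06, with 0.03 in KO and 0.09 in WT. By library the median deviation from the anti-CD3 mean of the genotype was 0.160, 0.005 and -0.135 in KO and 0.071 and 0.076 in WT with both antibodies. With anti-CD3 it was 0.061, 0.049 and -0.124 in KO and 0.015, -0.039 and 0.024 in WT. The KO libraries overlapped, with KO both-antibody replicate 3 the lowest. Tob1, an inhibitor of T cell proliferation, was the 1 member at an unadjusted p under 0.05, at 0.22 ± 0.10, with 0.41 in KO and -0.002 in WT. Tcf7, the transcription factor TCF1, was at 0.06 ± 0.09. Klf2, which maintains homing receptors, was at 0.24 ± 0.12, with 0.003 in KO and 0.52 in WT, or 0.50 in KO and -0.31 in WT after the correction, so its direction in WT turned.

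The pathway of CD28 itself showed no common direction. Of its 26 measured components, 11 lay above and 15 below 0 (median -0.013, range -0.05 to 0.39), with none at an unadjusted p under 0.05. Map3k14, the kinase NIK of the alternative NF-kappaB route, with 58.7% GC, was at -0.42 in KO and 0.87 in WT, or -0.14 in KO and 0.28 in WT after the correction. The 23 NF-kappaB subunits, inhibitors and targets had a median of -0.011, with -0.14 in KO and 0.18 in WT, or 0.004 in KO and -0.005 in WT after the correction. The 29 early genes of the T cell receptor had -0.02, with -0.20 in KO and 0.16 in WT, or -0.01 in KO and -0.09 in WT after it. T cell cytokines had 11 of 15 below 0 (median -0.08), the 17 costimulatory receptors 13 (-0.06) and the 17 inhibitory receptors and exhaustion genes 13 (-0.07), of which Cd200r1 had the lowest value, -0.62 ± 0.24. Among 15 Bcl-2 family genes 9 lay below 0 (median -0.04).

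By smallest p among protein-coding genes with 1 sign in both genotypes, the named lower genes were Mfsd2a, Fdps, Cdc6, Bcat1 and Apex1, and the higher ones Ksr2, Efcab2, Ccpg1os, Rhob and Tlnrd1, none of them called. Their shared sign was a condition of the choice. A small p also favours libraries that do not overlap, so neither is evidence of a shared effect. Mfsd2a, a lipid transporter of the cell membrane, had 7.72, 10.03 and 8.84 CPM in KO cells and 3.58 and 3.30 CPM in WT cells given both antibodies, against 11.6, 12.9 and 15.7 CPM in KO cells and 4.92, 5.41 and 4.72 CPM in WT cells given anti-CD3. It was lower without overlap in each genotype, at -0.58 ± 0.12 (unadjusted p = 0.000284, adjusted p = 1), with -0.60 in KO and -0.55 in WT. Bcat1, the cytosolic branched-chain aminotransferase, was at -0.32 ± 0.09 and Apex1, a DNA repair nuclease, at -0.29 ± 0.09, also without overlap.

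Ksr2, a scaffold of the RAF and MEK kinases, had 5.34, 4.18 and 3.15 CPM in KO cells and 5.90 and 6.40 CPM in WT cells given both antibodies, against 3.54, 3.15 and 2.41 CPM in KO cells and 4.39, 4.20 and 4.42 CPM in WT cells given anti-CD3. Its log2 fold change was 0.50 ± 0.15, with 0.50 in KO, where the libraries overlapped, and 0.51 in WT, where they did not. Rhob, a small GTPase, had 35.5, 33.7 and 26.9 CPM in KO cells and 51.5 and 55.7 CPM in WT cells given both antibodies, against 32.1, 29.9 and 32.9 CPM in KO cells and 32.0, 34.2 and 34.3 CPM in WT cells given anti-CD3. It was at 0.02 in KO and 0.68 in WT as deposited, and at 0.28 in KO and 0.31 in WT after the correction.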

How the data were processed

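RNA of stimulated CD8+ T cells was depleted of ribosomal RNA with a stranded kit before paired-end sequencing, according to the labels' protocols. The authors deposited whole-number read counts per gene and library (53679 genes), and the submitters' processing notes name STAR 2.5.2, RSEM 1.3.0 and GRCm38. RSEM estimates need not be whole, and the sources used here do not give any rounding, the annotation used in counting or the strand setting. Genes that overlap or have near-identical copies share reads, so their values are uncertain. Symbols, positions, gene types and the GC content of the longest transcript came from GENCODE M21 (53650 identifiers matched).

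Counts of the 11 stimulated libraries were fitted as deposited with edgeR 4.0.16 (R 4.3.3) by robust quasi-likelihood, with TMM scaling and filterByExpr by the 4 groups (common biological coefficient of variation 0.145), as an additive model of genotype and stimulation, and with 1 coefficient per group for the genotypes and the interaction. The Benjamini-Hochberg method adjusted p within each contrast (threshold 0.05). CPM use TMM-scaled totals. For the GC correction, log2 CPM of each library were smoothed against GC content (loess, span 0.3), and the curves entered the fit as offsets, with GC values for 99.9% of the genes. Alternatives were other scaling, DESeq2 1.42.0, limma voom 3.58.1 with quality weights, other filters, all 17 libraries, 1 genotype alone, the replicate number as a block and each library left out. The fits on simulated counts were checked against the known changes. That simulation gave all libraries of a group the same GC trend, so it does not cover the spread of tilts among the KO both-antibody replicates. Correction together with another tool or without KO both-antibody replicate 3 was added after seeing the data.

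The comparison, members and lists were chosen with earlier results of these data known. Named genes were a list of 31 activation genes, then, since fewer than 5 were called in either direction, the 5 genes of smallest p per direction with the same sign in both genotypes, and likewise for the interaction without that condition. Figures were drawn with matplotlib 3.10.9, and the promoter came from RefSeq, GRCm38.p6.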

Additional observations from a re-analysis of the deposited data

How the results depend on the processing

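For anti-CD28 in both genotypes the count of called genes was 0 under every alternative except DESeq2, the GC correction with DESeq2 (1 each, Gm26825) and the GC correction with the replicate block (1, Gm23925), and leaving out any 1 library gave 0. For the interaction the count was 2536 by DESeq2, 7780 by limma voom, 545 with no filter, 1 with all 17 libraries, 7 with the GC correction and without KO both-antibody replicate 3, 3706 with the correction and limma voom, 332 with it and DESeq2, and 0 to 5536 with 1 library left out. In KO it was 5 by DESeq2, 5492 by limma voom, 3020 with the correction and limma voom, 6 with it and DESeq2, and 0 to 2900 with 1 library left out. In WT it was 515, 6362, 2028 and 159 by the same tools, 27 with no filter, 4780 in WT libraries alone, 331 with the correction and without KO both-antibody replicate 3, and 0 to 3470 with 1 library left out. The cause of these differences was not tested. With 1 WT both-antibody library left out, the lone library is assumed to vary like the other groups.

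The labels do not say what a replicate number stands for. Same-numbered libraries had deviations from their group means that correlated at 0.10, 0.05 and 0.11 in KO and -0.13 and -0.19 in WT. After the GC correction they correlated at 0.12, 0.08 and 0.31 in KO and -0.13 and -0.20 in WT. Since neither set lay over 0.1 for every pair, the numbers were not taken to pair the samples. Different-numbered KO pairs reached at most 0.024 as deposited, below every same-numbered KO pair, and 0.238 after the correction. With only 2 WT both-antibody libraries their deviations are mirror images, so the 2 WT values are not separate evidence. With the replicate block 1 gene was called for the interaction, 1 in KO, 1 in WT and 0 in both genotypes together, and with the block and the GC correction the counts were 10 for the interaction, 3 in KO, 16 in WT and 1 in both together. The tilt difference was 0.20 with the block.

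The tilt difference in both genotypes ran from -0.035 to 0.34 with 1 library left out, 0.10 with classes of 52% and 44% GC. None of the 41 genes named for anti-CD28 was called under any of 943 alternative values. The lowest adjusted p among these values was 0.0535, close to the threshold, which limma voom gave for Tnfrsf9 and Xcl1 among others. Of the 31 activation genes 13 turned sign under at least 1 alternative, 2 of them, Il2 and Myc, with the GC correction. Of 29 list medians, 14 kept their sign under all alternatives, among them DNA replication (-0.27 to -0.11), ribosome biogenesis (-0.25 to -0.10) and glycolysis (-0.15 to -0.003).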

Other observations

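Small nucleolar RNA genes, which guide the modification of ribosomal RNA and lie mostly in introns of other genes, stood above 0 with both antibodies for 96 of the 108 tested (47.1% of all genes tested lay above 0). Their median log2 fold change was 0.25, with 0.16 in KO and 0.33 in WT, and 0.27 after the GC correction. At an unadjusted p under 0.05 there were 18 higher and 0 lower, and none was called. Of all genes tested, 1.13% were higher and 1.52% lower at that p. By library the median deviation from the anti-CD3 mean of the genotype was 0.22, 0.23 and -0.10 in KO and 0.59 and 0.11 in WT with both antibodies, against -0.05, 0.01 and 0.07 in KO and 0.03, -0.03 and 0.02 in WT with anti-CD3. KO both-antibody replicate 3 lay below its anti-CD3 libraries and the other 4 both-antibody libraries above theirs. Many of these RNAs are shorter than the sequenced fragments and overlap host introns, and the part of either in the values was not tested.

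Several other noncoding annotation classes also lay above 0 more often than the 47.1% of all genes. Among the larger ones were TEC (661 of 991), antisense (395 of 650), lincRNA (291 of 505), processed transcript (167 of 264) and sense intronic genes (81 of 112). Their medians were small and, except for antisense genes (0.095 in KO and 0.02 in WT), lay on opposite sides of 0 in the genotypes, such as 0.18 in KO and -0.05 in WT for TEC genes. Processed pseudogenes lay above 0 for 395 of 975 (median -0.06). Mitochondrially encoded genes were opposed between the genotypes as deposited, with a median of 0.35 in KO and -0.29 in WT over 13 genes of 37.1% median GC, and 0.08 in KO and -0.006 in WT after the correction.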
